A study of Mus musculus with 9 samples.

Results

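The genes described here are 10 genes best known from follicular helper, regulatory and exhausted T cells, namely Pdcd1, Icos, Il21, Foxp3, Ctla4, Tox, Havcr2, Lag3, Tigit and Maf. They were taken by symbol from the 41128 rows of a gene count table of mouse lymphomas, and all 10 had a row and passed the filter on low counts. The tumors came from 3 Bcl6 mice (Smc3 wt/wt) and 6 Smc3/Bcl6 mice (Smc3 wt/-), with 1 library per tumor. Mice of both genotypes carried the IµBcl6 transgene, which keeps Bcl6 on in B cells, and Cγ1-Cre, which acts in germinal center B cells. The Smc3 allele is thus meant to be lost from B cells and not from the T cells among them, which was not checked in these libraries. The ages of the mice are not given in the sources used here. The RNA came from lymphoma cells of lymph nodes, and no sort of these cells is given in the sources used here. Replicate 1 of both genotypes is labelled as mesenteric lymph node and the remaining tumors as lymph node, whereas the text of the study names the mesenteric node for both genotypes, so that the label may mark no difference in tissue. The p-values measure the spread between these tumors.

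Follicular helper T cells enter the germinal center and give B cells the signals they need there, among them CD40 ligand, ICOS and the cytokine IL-21. Regulatory T cells hold such responses back and depend on the transcription factor Foxp3. T cells that meet their antigen for a long time raise a set of inhibitory receptors, PD-1 (Pdcd1), Lag-3, Tim-3 (Havcr2) and Tigit, under the transcription factor Tox, a state called exhaustion. These genes are not private to T cells, since PD-1 and Lag-3 are also known on activated B cells, and Maf and Havcr2 are known in macrophages. Cd3e, a subunit of the T-cell receptor complex, is used below as the T-cell transcript of each tumor. In RNA from a mixture of cells, fewer cells of a type and less RNA per cell cannot be told apart.

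The stretches directly before the start sites of Havcr2, Pdcd1 and Cd3e are shown because Havcr2 had the steadiest count relative to Cd3e of the 10 genes and Pdcd1 the least steady of the 9 that were counted in every tumor. They are 250 bases from RefSeq on GRCm38.p6, 5′ to 3′ on the strand of the gene, and RefSeq gave promoters for 6 of the 10 genes. Capitals mark GGAAA on either strand, the core bound by NFAT factors, which act downstream of the T-cell receptor.
Havcr2, chr11:46454681-46454930, plus strand: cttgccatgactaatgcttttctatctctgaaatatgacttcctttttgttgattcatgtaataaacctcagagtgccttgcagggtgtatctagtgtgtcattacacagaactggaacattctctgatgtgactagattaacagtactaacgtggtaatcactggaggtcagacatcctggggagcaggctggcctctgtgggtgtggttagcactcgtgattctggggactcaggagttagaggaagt
Pdcd1, chr1:94052554-94052803, minus strand: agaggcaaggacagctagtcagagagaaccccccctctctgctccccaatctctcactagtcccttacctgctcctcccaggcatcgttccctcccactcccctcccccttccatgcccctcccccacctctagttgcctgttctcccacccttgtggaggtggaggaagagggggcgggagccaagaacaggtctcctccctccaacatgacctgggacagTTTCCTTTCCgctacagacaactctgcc
Cd3e, chr9:45009612-45009861, minus strand: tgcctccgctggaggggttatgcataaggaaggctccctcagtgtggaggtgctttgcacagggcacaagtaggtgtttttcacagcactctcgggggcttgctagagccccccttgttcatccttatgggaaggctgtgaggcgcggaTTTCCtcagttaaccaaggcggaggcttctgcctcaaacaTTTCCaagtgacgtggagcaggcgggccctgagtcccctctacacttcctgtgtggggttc
The window of Havcr2 held 0 matches, and those of Pdcd1 and Cd3e held 2 each, which do not overlap. Of all 32851 promoter windows of this length, 55.6% held at least 1 match. The AP-1 motif TGANTCA, searched on both strands, stood once in the window of Havcr2, 0 times in the other windows shown, and in 6.75% of all windows.

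The libraries held between 10156728 and 17774577 counts, with a median of 11121788 in Bcl6 and 14438263 in Smc3/Bcl6 tumors. Levels are given as CPM, counts scaled to a common library size by edgeR's TMM method. Smc3, the deleted gene, averaged 104 ± 19.3 CPM over the Bcl6 tumors (SD, n = 3) and 91.4 ± 32.0 CPM over the Smc3/Bcl6 tumors (SD, n = 6), of which tumor 2 had 27.9 CPM and the other 5 had 89.7 to 111 CPM, inside the range of the Bcl6 tumors (88.1 to 126 CPM). The study reports reduced Smc3 mRNA in Smc3/Bcl6 tumors by RT-qPCR. The deletion targets part of the gene, whereas the counts cover all of it. Smc3/Bcl6 tumor 2 stood apart from the other libraries in that its counts of long genes were low, with a Spearman correlation across genes of exon length and deviation from the other tumors of -0.47 against -0.03 to 0.27 elsewhere. The exons of Smc3 span 5541 bases, and the part of length in its low level in tumor 2 was not tested. The 6 B-cell markers summed to between 2537 and 9978 CPM, so that B-cell transcripts were abundant in every tumor.

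Cd3e (chromosome 9, 44998740 to 45009627, GRCm38) had 21.5, 454 and 322 CPM in Bcl6 tumors 1 to 3. In the Smc3/Bcl6 tumors it ranged from 5.13 to 384 CPM with a median of 82.4. Levels were low in Bcl6 tumor 1 and Smc3/Bcl6 tumors 1, 4 and 6, at 5.13 to 22.8 CPM, and the other 5 tumors had at least 142 CPM. Tumors of both genotypes thus lay on either side of this gap. The summed level of 15 T-cell receptor complex and coreceptor genes was 149 to 474 CPM in those 4 tumors and 1474 to 4043 CPM in the other 5. In the 4 low tumors Lck (57.6 to 193 CPM) and Cd2 (43.0 to 157 CPM) were the largest parts of the sum. Which cells these transcripts came from was not tested. For 8 of the 10 genes, all but Il21 and Maf, the 4 lowest tumors were these same 4, whereas 4.65% of all genes tested had that property. This split of the tumors was read from Cd3e and is not a grouping of the study.

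**Figure D1:**
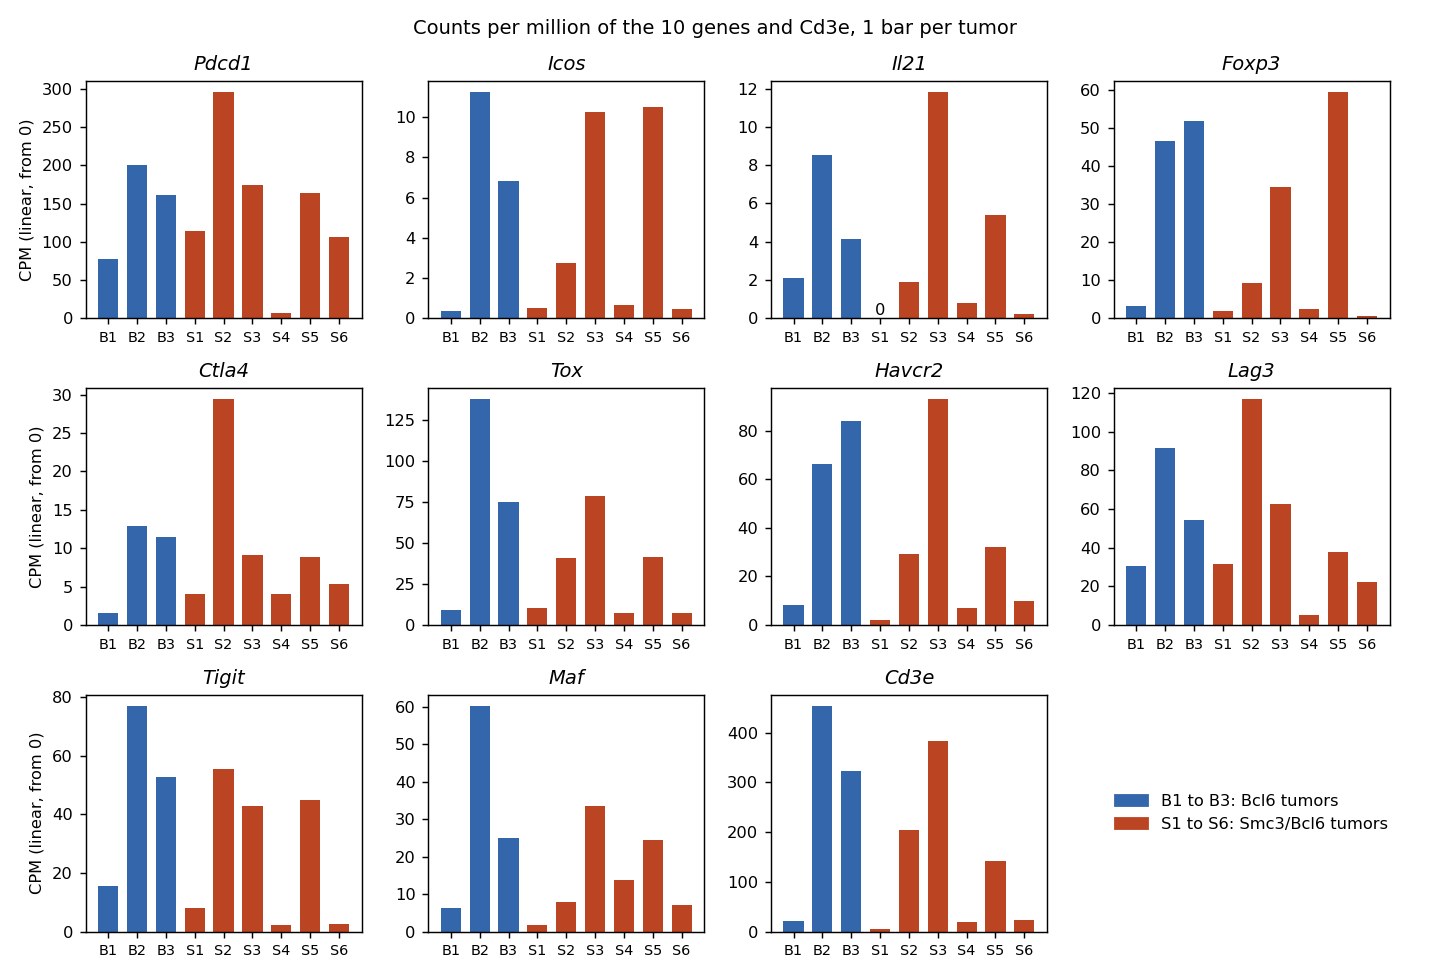
Level of each gene and of Cd3e in CPM (linear axis from 0), with 1 bar per tumor, blue for Bcl6 tumors 1 to 3 (B1 to B3) and red for Smc3/Bcl6 tumors 1 to 6 (S1 to S6). Cd3e is low in B1, S1, S4 and S6 (at most 22.8 CPM), and most of the genes are low in the same tumors, while Pdcd1 keeps 78.1 to 114 CPM in B1, S1 and S6.

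The inhibitory receptors Pdcd1, Tigit, Lag3 and Havcr2 had the highest median levels per length of the 10 genes. Pdcd1 (ENSMUSG00000026285.7, chromosome 1, 94038305 to 94052553), which encodes PD-1, had 78.1, 201 and 161 CPM in Bcl6 tumors 1 to 3. In Smc3/Bcl6 tumors 1 to 6 it had 114, 296, 174, 7.39, 163 and 106 CPM. Smc3/Bcl6 tumor 4 thus stood alone at the low end, and the genotypes overlapped. Per kilobase of exon, Pdcd1 was the highest of the 10 genes in 9 of 9 tumors, with a median level of 83.4 CPM per kb, followed by Tigit at 46.8 and Lag3 at 17.8 CPM per kb. Icos and Il21 had the lowest median levels, 0.802 and 0.403 CPM per kb.

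Lag3 (ENSMUSG00000030124.2, chromosome 6, 124904361 to 124911705), a receptor related to CD4 that binds MHC class II, had 30.5, 91.8 and 54.2 CPM in the Bcl6 tumors. It had 31.6, 117, 62.8, 4.99, 37.6 and 22.1 CPM in Smc3/Bcl6 tumors 1 to 6. As for Pdcd1, Smc3/Bcl6 tumor 2, the library with low counts of long genes, was highest and tumor 4 lowest. The exons of Pdcd1 and Lag3 span 1930 and 2109 bases, and the part of length in these peaks was not tested. The count of Pdcd1 relative to Lag3 stayed between 1.48 and 4.79 over the 9 tumors, with a median of 2.78. This was the narrowest range among pairs of the 10 genes themselves, 3.24-fold, and second of the 55 pairs when Cd3e was included. Both genes share libraries and depth, so that the range is a description of these tumors.

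Havcr2 (ENSMUSG00000020399.9, chromosome 11, 46454935 to 46481255), which encodes Tim-3, had 8.38, 66.5 and 83.9 CPM in the Bcl6 tumors. In Smc3/Bcl6 tumors 1 to 6 it had 2.15, 29.4, 93.0, 7.12, 32.0 and 9.93 CPM. It was low in the 4 tumors with little Cd3e and lowest where Cd3e was lowest. Tigit (ENSMUSG00000071552.4, chromosome 16, 43648867 to 43664146), a receptor for Pvr and nectins, had 15.5, 77.0 and 52.7 CPM in the Bcl6 tumors. It had 8.26, 55.7, 43.0, 2.40, 44.9 and 2.6 CPM in Smc3/Bcl6 tumors 1 to 6. Tigit was lowest in Smc3/Bcl6 tumors 4 and 6 rather than in tumor 1. Ctla4 (ENSMUSG00000026011.8, chromosome 1, 60887000 to 60915832), which competes with CD28 for Cd80 and Cd86, had 1.5, 12.9 and 11.4 CPM in the Bcl6 tumors. It had 4.09, 29.4, 9.09, 3.99, 8.84 and 5.33 CPM in Smc3/Bcl6 tumors 1 to 6. Its lowest tumor was Bcl6 tumor 1 and its highest was Smc3/Bcl6 tumor 2, the library with low counts of long genes.

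Tox (ENSMUSG00000041272.6, chromosome 4, 6686353 to 6991557), the transcription factor of the exhausted state, had 9.0, 137 and 74.9 CPM in the Bcl6 tumors. It had 10.5, 41.0, 78.2, 7.12, 41.1 and 7.13 CPM in Smc3/Bcl6 tumors 1 to 6. No tumor lay between 10.5 and 41.0 CPM. Maf (ENSMUSG00000055435.6, chromosome 8, 115682942 to 115707794), a transcription factor that acts on IL-21 and IL-4 in helper T cells, had 6.26, 60.2 and 24.9 CPM in the Bcl6 tumors. It had 1.73, 8.04, 33.6, 13.8, 24.5 and 7.20 CPM in Smc3/Bcl6 tumors 1 to 6. Maf did not separate the tumors as Tox did, since Smc3/Bcl6 tumor 4 was above tumor 2. Foxp3 (ENSMUSG00000039521.7, chromosome X, 7573644 to 7595245) had 3.18, 46.7 and 51.9 CPM in the Bcl6 tumors. It had 1.94, 9.31, 34.6, 2.40, 59.5 and 0.466 CPM in Smc3/Bcl6 tumors 1 to 6, so that its highest tumor and its lowest tumor were both Smc3/Bcl6. Exons of Foxp3 overlap those of Ppp1r3f, Gm36995 and Ccdc22 on the other strand and of Flicr on the same strand, and Tox, Il21, Maf and Cd3e each overlap a gene model on the other strand. The strand setting of the counting is not given in the sources used here, so that reads of such overlapping genes could not be told apart.

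The helper signals were low. Icos (ENSMUSG00000026009.9, chromosome 1, 60977927 to 61000320), the costimulatory receptor of follicular helper cells, had 0.353, 11.2 and 6.80 CPM in the Bcl6 tumors. It had 0.486, 2.75, 10.2, 0.666, 10.5 and 0.466 CPM in Smc3/Bcl6 tumors 1 to 6, with at most 10 reads in each of the 4 tumors below 1 CPM. Il21 (ENSMUSG00000027718.3, chromosome 3, 37222759 to 37232636), the cytokine of these cells, had 2.12, 8.53 and 4.16 CPM in the Bcl6 tumors. It had 0, 1.91, 11.8, 0.799, 5.37 and 0.20 CPM in Smc3/Bcl6 tumors 1 to 6. The 0 reads in Smc3/Bcl6 tumor 1 allow a level of up to 0.208 CPM, the worth of 3 reads there, by counting error only. Both genes were highest in tumors with much Cd3e, yet Icos had 2.75 CPM in Smc3/Bcl6 tumor 2, which had 205 CPM of Cd3e.

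Genotypes were then compared in the fit to all 14057 genes with edgeR's quasi-likelihood test. None of the 10 genes passed the thresholds of the study, an unadjusted p below 0.1 with an absolute log2 fold change above 0.56, against 1.28% of all genes that were higher and 0.868% that were lower in Smc3/Bcl6 tumors. By the same test 0 of the 10 had an adjusted p below 0.05 (0.0% of all genes) and 0 had an unadjusted p below 0.05 (0.562% of all genes). DESeq2 gave 0 at each of these thresholds too. The level of every one of the 10 genes overlapped between genotypes, whereas 0.484% of all genes did not overlap. The log2 fold changes, Smc3/Bcl6 minus Bcl6, were negative for 9 of the 10 genes and for 42.6% of all genes, and their median was -0.71 against 0.06 over all genes. Cd3e itself had -1.04 (standard error 1.19, adjusted p = 1), which lay in the same direction.

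The largest difference was that of Tox, which averaged 73.8 ± 64.2 CPM over the Bcl6 tumors (SD, n = 3) and 30.8 ± 28.3 CPM over the Smc3/Bcl6 tumors (SD, n = 6). This was a log2 fold change of -1.26 (standard error 0.89, unadjusted p = 0.189, adjusted p = 1 by edgeR). Maf followed with -1.04 (standard error 0.83, adjusted p = 1 by edgeR) and Foxp3 with -0.91 (standard error 1.28). Tigit, Havcr2, Il21, Icos and Lag3 had log2 fold changes of -0.89, -0.87, -0.56, -0.55 and -0.36, each smaller than its standard error. Pdcd1 was at 147 ± 62.5 CPM (SD, n = 3) against 143 ± 95.2 CPM (SD, n = 6), a log2 fold change of -0.03 (standard error 0.76). Ctla4 was the 1 gene with a positive value, 0.23 (standard error 0.80). Without Bcl6 tumor 2 the value for Tox was -0.53, that for Maf -0.12, and Havcr2 had the largest, -0.75. Without Smc3/Bcl6 tumor 2 the value for Ctla4 was -0.47, and for Lag3 it was -0.88. Exact two-sided permutation tests of log2 CPM over the 84 splits of 9 tumors into 3 and 6, where 0.0238 is the smallest p possible, gave values between 0.25 for Tigit and 0.798 for Pdcd1.

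The labels number the replicates, but no pairing of mice is given in the sources used here. Bcl6 tumor 2 correlated across genes more with Smc3/Bcl6 tumor 3 (r = 0.356) than with tumor 2 (r = 0.113). With replicates 1 to 3 of both genotypes taken as pairs, the replicate block called 3 of the 10 genes lower in Smc3/Bcl6 tumors at the thresholds of the study, against 1.9% of all genes in that fit. These were Foxp3 with a log2 fold change of -1.24 (standard error 0.51, unadjusted p = 0.0492 by edgeR), Havcr2 with -1.01 (standard error 0.48, unadjusted p = 0.0781 by edgeR) and Maf with -1.48 (standard error 0.73, unadjusted p = 0.0871 by edgeR). Cd3e passed the same thresholds in this fit with -1.01 (standard error 0.51, unadjusted p = 0.0908 by edgeR), and the smallest adjusted p of the 10 genes was 0.983. Limma with a quality weight per tumor called 8 of the 10 genes lower, all but Pdcd1 and Ctla4, against 7.13% of all genes. Cd3e had -2.69 (standard error 1.17) with these weights, and the smallest adjusted p by limma was 0.563. With the tissue label, which sets replicate 1 of each genotype against the rest, as a covariate, Maf alone was called lower (1.37% of all genes), without Bcl6 tumor 1 Tox alone (1.64%), and without Smc3/Bcl6 tumor 3 Tox and Havcr2 (2.32%). In the fits with the block and with quality weights the genes called lay in the same direction as Cd3e. With the Cd3e count in place of library size, the block called 0 of the 10 genes (smallest unadjusted p = 0.155 by edgeR). Their median log2 fold change was then 0.44, against 0.93 over all genes, with standard errors of 1.01 to 1.28. The part of T-cell content in the calls was not tested beyond this.

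**Figure D2:**
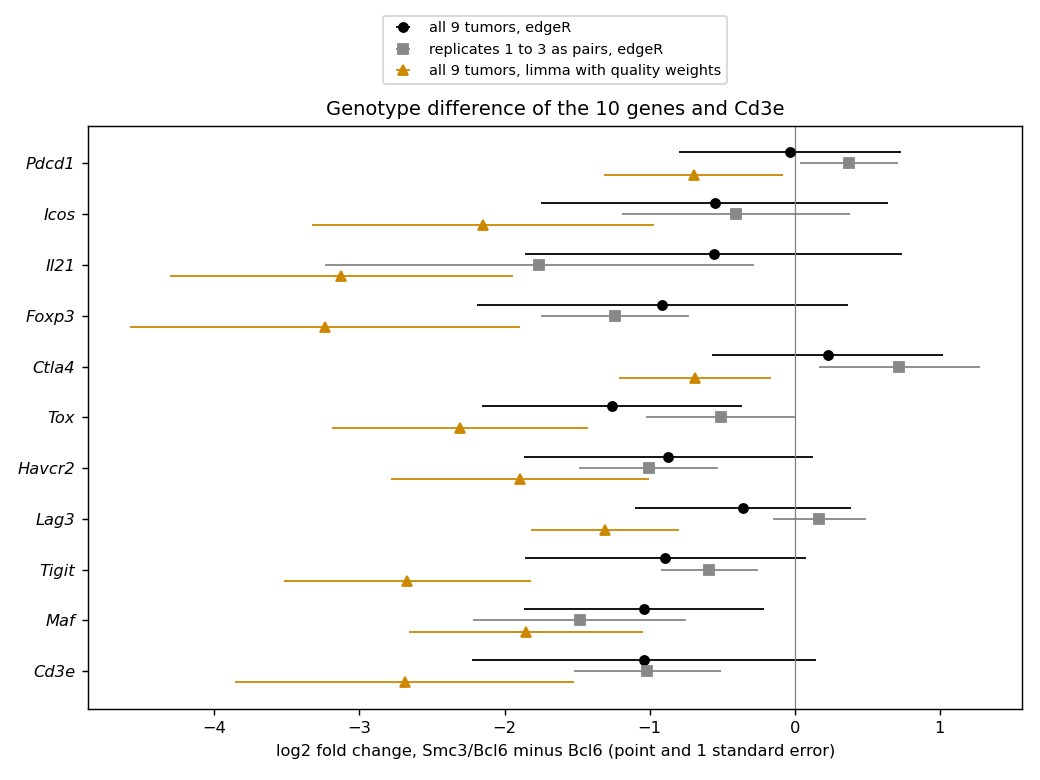
Log2 fold change, Smc3/Bcl6 minus Bcl6, of the 10 genes and Cd3e with 1 standard error, in black from edgeR on 9 tumors, in grey from edgeR with replicates 1 to 3 as pairs and in orange from limma with quality weights. With limma, 11 of 11 values are below 0 and Cd3e is at -2.69, while Pdcd1 (-0.03) and Ctla4 (0.23) lie near 0 in edgeR on 9 tumors.

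Counts were next divided by the Cd3e count of the same tumor. The count of Cd3d per count of Cd3e was 2.12 in Smc3/Bcl6 tumor 2 and 0.249 in tumor 6, against 0.525 to 0.892 in the other tumors. Ratios in Smc3/Bcl6 tumors 2 and 6 thus depend on the T-cell transcript chosen. Havcr2 kept the steadiest ratio, 0.389, 0.147 and 0.260 in the Bcl6 tumors and 0.419, 0.144, 0.242, 0.377, 0.225 and 0.436 in Smc3/Bcl6 tumors 1 to 6. This was a 3.04-fold range while Cd3e itself ranged 88.4-fold, the narrowest of all 55 pairs. Relative to the summed counts of Cd3d, Cd3e, Cd3g and Cd247, Havcr2 ran from 0.021 in Smc3/Bcl6 tumor 2 to 0.237 in tumor 6. Its range was thus wider with this reference. The ratio of Icos to Cd3e ranged 7.05-fold, from 0.013 to 0.095, and that of Tox to Cd3e 10.2-fold, from 0.20 to 2.04. For Tox, 8 of 9 tumors lay between 0.20 and 0.418, and Smc3/Bcl6 tumor 1 alone was above them.

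Pdcd1 had the widest range of ratios, 56.8-fold. It had 3.63, 0.442 and 0.50 counts per count of Cd3e in the Bcl6 tumors and 22.2, 1.44, 0.454, 0.391, 1.15 and 4.64 in Smc3/Bcl6 tumors 1 to 6. Bcl6 tumor 1 and Smc3/Bcl6 tumors 1 and 6, with little Cd3e, were thus high, and Smc3/Bcl6 tumor 4, also with little Cd3e, was the lowest of all. Relative to the sum of Cd3d, Cd3e, Cd3g and Cd247, Pdcd1 was at 0.211 in Smc3/Bcl6 tumor 2, beside 0.160 and 0.163 in Bcl6 tumors 2 and 3. By that sum it stayed highest in Smc3/Bcl6 tumor 1, at 6.47, and lowest in tumor 4, at 0.115. In Smc3/Bcl6 tumor 1 the ratio of 22.2 came from 1643 reads of Pdcd1 and 74 of Cd3e, with an exact 95% interval of 17.6 to 28.4 for counting error only. The ratio of 0.391 in tumor 4 came from 111 and 284 reads, with an interval of 0.311 to 0.488. Lag3 had 6.15 in Smc3/Bcl6 tumor 1, 1.42 in Bcl6 tumor 1 and 0.968 in Smc3/Bcl6 tumor 6, and between 0.164 and 0.570 in the other 6 tumors. These are the same 3 tumors in which Pdcd1 was high, and their summed B-cell markers were 6374, 8044 and 5266 CPM, with 9978 CPM in Smc3/Bcl6 tumor 4. The other 5 tumors had 2537 to 5377 CPM, and Smc3/Bcl6 tumor 5, at 5377 CPM, was above tumor 6. The part of B cells in the levels of Pdcd1 and Lag3 was not tested.

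Ctla4 had ratios of 0.070, 0.028 and 0.035 in the Bcl6 tumors and 0.797, 0.144, 0.024, 0.211, 0.062 and 0.234 in Smc3/Bcl6 tumors 1 to 6, a 33.7-fold range. Tigit had 0.721 in Bcl6 tumor 1 and 1.61 in Smc3/Bcl6 tumor 1, and between 0.112 and 0.316 in the other 7 tumors. Foxp3 was highest relative to Cd3e in Smc3/Bcl6 tumor 5, at 0.419 (753 reads, exact 95% interval 0.384 to 0.457), and lowest in tumor 6, at 0.020 (7 reads, interval 0.008 to 0.043). Relative to the sum of Cd3d, Cd3e, Cd3g and Cd247, Foxp3 stayed highest in tumor 5, at 0.136. By that sum its lowest was Smc3/Bcl6 tumor 2, at 0.0066, below tumor 6 at 0.011. Maf was highest in Smc3/Bcl6 tumor 4, at 0.732, and lowest in tumor 2, at 0.039. Il21 had between 0.009 and 0.098 where it was counted, with its highest ratio in Bcl6 tumor 1.

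**Figure D3:**
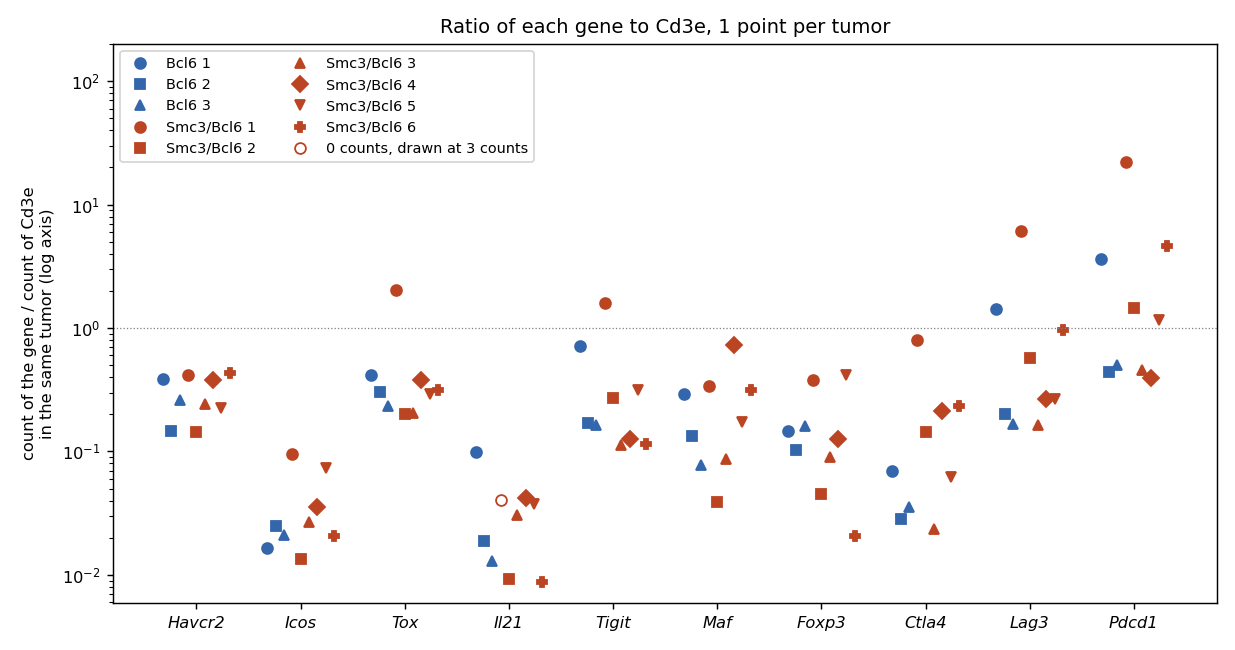
Count of each gene divided by the Cd3e count of the same tumor (log axis), with 1 point per tumor, blue for Bcl6 and red for Smc3/Bcl6 tumors and an open point where 0 reads were counted and 3 were drawn. Havcr2 spans 0.144 to 0.436 and Pdcd1 spans 0.391 to 22.2, and the genotypes overlap for each gene.

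No difference in these ratios between genotypes larger than the spread was found. With the Cd3e count as the offset in place of library size, 0 of the 10 genes passed the thresholds of the study in edgeR, against 3.19% of all genes higher and 0.0427% lower, and 0 of the 10 had an unadjusted p below 0.05 (1.43% of all genes). The median log2 fold change was 0.79 over the 10 genes and 1.56 over all 14056 genes, a shift of the whole table that the Cd3e offset brings. Ctla4 had the largest value, 2.46 (standard error 2.04, adjusted p = 0.662 by edgeR), followed by Pdcd1 with 1.73 (standard error 1.97, adjusted p = 0.662 by edgeR). Il21 was the 1 gene with a negative value, -0.93 (standard error 1.57), as were 1.81% of all genes. Without Smc3/Bcl6 tumor 1 the median over all genes was 0.41 and that over the 10 genes was 0.06. DESeq2 on the same ratio called Ctla4 alone, with 2.46 (unadjusted p = 0.0341 by DESeq2), among 10.6% of all genes. Exact two-sided permutation tests of the log2 ratio gave p between 0.167 for Ctla4 (a difference of 1.78) and 0.94 for Tigit. For Foxp3 and Tigit the mean difference in log2 ratio was negative, -0.29 and -0.14, while edgeR gave 0.39 and 0.27.

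The level of each gene was also compared with that of Cd3e across the tumors. The 9 tumors form 2 sets on either side of the gap in Cd3e, of 4 and 5 tumors, each below the 6 tumors taken here as the minimum for a correlation, so that the relation was not tested within either and no coefficient over the pooled tumors is given. Over the pooled tumors 0 of the 10 genes had an adjusted p below 0.05 in the exact permutation test of Pearson's r, as had 0.0% of all genes, while 9 of the 10, all but Pdcd1, had an unadjusted p below 0.05 with a positive r, against 8.18% of all genes. By Spearman's rho the unadjusted exact permutation p was 0.0503 for Foxp3 and 0.0214 for Pdcd1, so that the gene left out changed with the coefficient and the threshold. These counts and the ranks below carry the gap in Cd3e, which the 4 low tumors already showed, and add nothing to it. Ranked by r with Cd3e among 14056 genes, Havcr2 was at 7, Tox at 129, Icos at 193, Lag3 at 1104 and Pdcd1 at 1623. The 5 genes at the top were Galm, Trac (the T-cell receptor alpha constant region), Fut7, Camk4 and Trbv12-2 (a T-cell receptor beta variable segment).

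**Figure D4:**
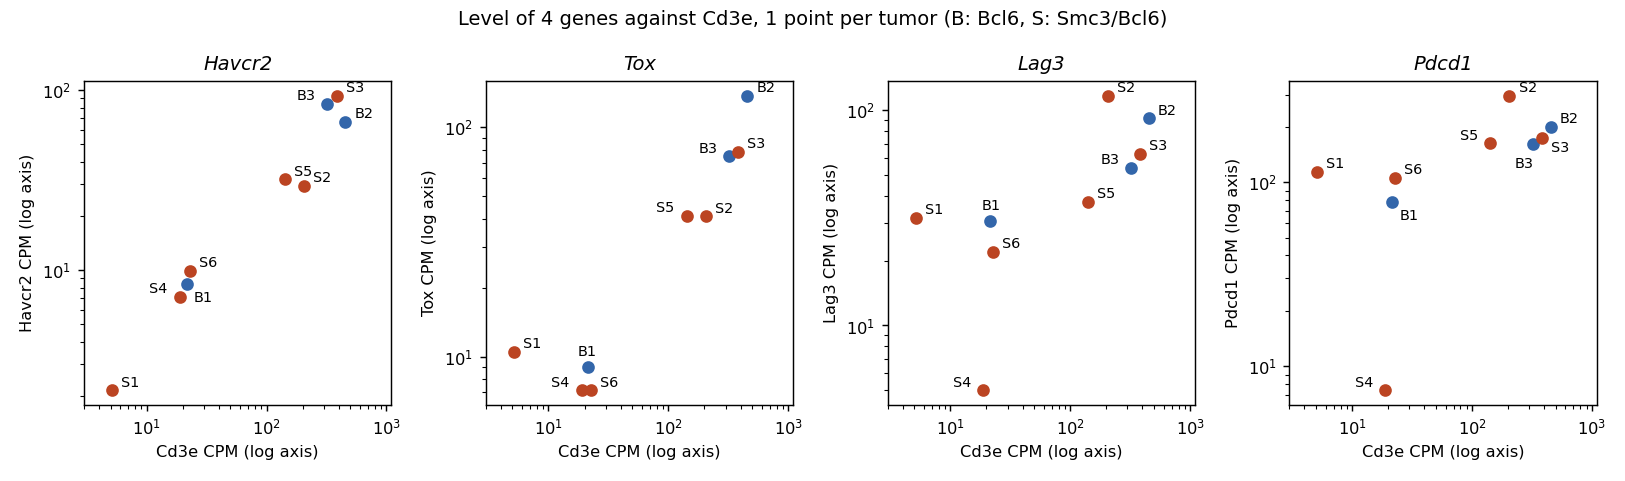
Level of Havcr2, Tox, Lag3 and Pdcd1 against that of Cd3e in CPM (log axes), with 1 point per tumor (B, Bcl6; S, Smc3/Bcl6). Havcr2 has 2.15 to 9.93 CPM in the 4 tumors with at most 22.8 CPM of Cd3e and 29.4 to 93.0 CPM in the other 5. Pdcd1 has 114 CPM in S1, where Cd3e is at 5.13 CPM, and 7.39 CPM in S4.

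Maf and Havcr2 were compared with macrophage markers because macrophages are known to express both. The 10 markers summed to 336, 1071 and 2551 CPM in the Bcl6 tumors and to 154, 3042, 2675, 2552, 1665 and 1512 CPM in Smc3/Bcl6 tumors 1 to 6, and 0 of the 10 were at 0 in every tumor. By the mean log2 CPM of the markers, Smc3/Bcl6 tumor 4, where the ratio of Maf to Cd3e was highest, was also the highest, at 7.38, while Smc3/Bcl6 tumor 1 was lowest, at 2.59. Smc3/Bcl6 tumor 2, where this ratio was lowest, had the largest sum through C1qb and C1qc but a mean of 5.48, and it is the library with low counts of long genes, while Maf has the longest exons of the 10 genes (8241 bases). Over the 9 tumors Pearson's r with the mean log2 CPM of these markers was 0.51 for Maf (Spearman's rho 0.28, exact permutation p = 0.161 and 0.463, adjusted p = 0.928 over all genes for r) and 0.42 for Havcr2 (rho 0.20, exact permutation p = 0.262 and 0.613, adjusted p = 0.947). Without the 2 tumors farthest from the median of the markers, r was 0.05 for Maf and 0.28 for Havcr2, so that the relation of Maf rests on those tumors. Of the 10 genes, 0 had an adjusted p below 0.05 with these markers, against 0.00712% of 14047 genes, and 0 had an unadjusted p below 0.05 with a positive r, against 3.55%.

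Other genes of the same T-cell programs were examined by lists. No gene of these lists passed the thresholds of the study between genotypes. Of 15 T-cell receptor complex genes, 15 had negative log2 fold changes, with a median of -0.61, and 13 of the 14 other than Cd3e were lowest in the same 4 tumors as Cd3e, against the 4.65% of all genes given above. The most abundant of these were Lck, the kinase that starts T-cell receptor signaling (57.6 to 887 CPM), Cd2 (43.0 to 667 CPM) and Cd3g (5.62 to 643 CPM). Of 9 other regulatory T genes tested, 8 had negative log2 fold changes, with a median of -0.44, and 6 were lowest in the same 4 tumors. Tnfrsf4 (OX40) ranged from 1.67 to 242 CPM, Tnfrsf18 (GITR) from 9.71 to 127 CPM, Ikzf2 (Helios) from 1.47 to 73.1 CPM and Il2ra, the high-affinity IL-2 receptor chain, from 3.19 to 50.1 CPM. In Smc3/Bcl6 tumor 5, where Foxp3 was highest, the 10 listed genes summed to 316 CPM, below the 374 to 486 CPM of Bcl6 tumors 2 and 3 and Smc3/Bcl6 tumors 2 and 3. Its Tnfrsf4 (120 CPM) and Tnfrsf18 (57.5 CPM) were below all of those tumors. Ikzf2 (61.5 CPM) and Il2ra (25.0 CPM) lay within their range. Cd3e was also lower than in those tumors, at 142 CPM. Relative to Cd3e, Ikzf2 (0.43) and Il2ra (0.18) were above those tumors, and Tnfrsf4 (0.84) and Tnfrsf18 (0.41) within their range.

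The other exhaustion genes had a median log2 fold change of -0.71, with 6 of 8 negative, and 3 of 8 were lowest in the same 4 tumors. Eomes, a T-box factor of exhausted and cytotoxic cells, ranged from 1.73 to 87.6 CPM and Cd160 from 1.6 to 79.6 CPM, whereas the ectonucleotidase Entpd1 kept 28.4 to 134 CPM and Nr4a1 8.33 to 42.8 CPM. Of the other follicular helper genes tested, 5 of 10 had negative log2 fold changes, with a median of -0.05, and 3 of 10 were lowest in the same tumors. The 4 most abundant of them, Btla, Batf, Cxcr5 and Slamf6, are also known in B cells. Btla had 183 to 443 CPM, Cxcr5, the receptor that guides cells into follicles, 109 to 317 CPM, and Slamf6 85.1 to 226 CPM, and both Btla and Cxcr5 were highest in Smc3/Bcl6 tumor 4. Batf, a factor of both helper T and germinal center B cells, had 26.5 CPM in Smc3/Bcl6 tumor 4, 690 CPM in tumor 2 and between 127 and 238 CPM in the others. It was thus lowest and highest in the same tumors as Pdcd1 and Lag3, of which Smc3/Bcl6 tumor 2 is the library with low counts of long genes.

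Among ligands and receptors that pair with the 10 genes, the most abundant were counted in every tumor. Il21r, the receptor for IL-21, had 221 to 509 CPM, Cd86, a ligand of Ctla4, 124 to 317 CPM, Cd274 (PD-L1, a ligand of PD-1) 50.1 to 304 CPM, and Lgals9, a ligand described for Tim-3, 72.6 to 205 CPM. Of these ligands and receptors 10 were tested, 4 had negative log2 fold changes and the median was 0.30, and 0 were lowest in the same 4 tumors as Cd3e. In Smc3/Bcl6 tumor 2, where Pdcd1 was highest, Cd274 was lowest. That tumor is the library with low counts of long genes, and the part of gene length in this contrast was not tested. Among markers of other cells, the median log2 fold change was 0.50 for macrophage, 0.30 for B-cell, 0.58 for plasma cell, 0.79 for plasmacytoid dendritic cell and -0.16 for NK and cytotoxic markers. NK and cytotoxic markers summed to between 24.5 and 966 CPM, plasma cell markers to between 884 and 5559 CPM and plasmacytoid dendritic cell markers to between 271 and 742 CPM.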

How the data were processed

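Libraries from the RNA of 9 tumors were prepared with the Illumina TruSeq RNA kit and sequenced on a HiSeq instrument. The authors ran the nf-core pipeline, with STAR alignment to mm10 and Gencode transcripts and read assignment by featureCounts. The deposited values are counts per gene without normalization, and 0 columns were without a sample. Depth was 10156728 to 17774577 counts. GENCODE M21 (GRCm38), which held 97.9% of the gene identifiers, gave positions and exon lengths.

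The genotype comparison used edgeR 4.0.16 (R 4.3.3) with TMM scaling, filterByExpr, the quasi-likelihood test and no covariate (Benjamini-Hochberg adjustment over all genes tested). The ratio was tested with the log of the Cd3e count as the offset, and single ratios with 0.5 added to both counts. Correlations used log2 CPM (prior count 2) and all 362880 orderings of the tumors. Intervals are exact (Clopper-Pearson) and cover counting error only. Alternatives were DESeq2 1.42.0, limma 3.58.1 with quality weights, other normalization, filter, pseudocount, prior count and T-cell reference, a tissue covariate, a replicate block, and each tumor left out. The scripts were tested on simulated data.

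The replicate numbers come from the labels, and no pairing of mice is given in the sources used here. After subtraction of the genotype mean of each gene, tumors sharing a number correlated across genes at r = 0.443, 0.113 and 0.155 for replicates 1, 2 and 3, so they were treated as pairs in the block, although Bcl6 tumor 2 correlated more with Smc3/Bcl6 tumor 3 (r = 0.356).

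The genes named are the 10 genes, Cd3e, up to 4 genes of each list with the highest mean CPM, the 5 genes with the highest r with Cd3e, and Smc3. The lists cover T-cell receptor complex, follicular helper, regulatory T, exhaustion, ligand and receptor, macrophage, B-cell, plasma cell, plasmacytoid dendritic cell and NK genes. The 10 genes and the lists were chosen with earlier results of these data known.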

Additional observations from a re-analysis of the deposited data

Results flagged for a closer look

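In 2 of the 21 measures examined (log2 CPM of the 10 genes and Cd3e, and log2 ratios to Cd3e), 1 of the 6 Smc3/Bcl6 tumors lay far from the other 5 by Dixon's criterion. Chance gives about 1 in 20 such results, or 1.05 of 21 measures. In log2 CPM of Pdcd1, Smc3/Bcl6 tumor 4 was lowest, and its gap to the next tumor was 0.720 of the range, with 7.39 CPM against 106 CPM. In the log2 ratio of Tox to Cd3e, Smc3/Bcl6 tumor 1 was highest, with a gap of 0.726 of the range, 2.04 against 0.377 in the next tumor. The ratio in tumor 1 rests on 151 reads of Tox and 74 reads of Cd3e, with an exact 95% interval of 1.54 to 2.73 for counting error only.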

How the results depend on the processing

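The number of the 10 genes past the thresholds of the study, 0 between genotypes, was 3 with the replicate block, 8 by limma with quality weights, 1 with the tissue label as a covariate (Maf, -1.42, unadjusted p = 0.0295 by edgeR) and 0 to 2 with each tumor left out (Tox without Bcl6 tumor 1, Tox and Havcr2 without Smc3/Bcl6 tumor 3). For the ratio to Cd3e it was 1 by DESeq2 and 0 in the other alternatives, each tumor left out included, and for correlations it stayed 0. The cause was not tested. No alternative gave a gene of the 10 an adjusted p below 0.05. The direction turned with the block for Pdcd1 (0.37) and Lag3 (0.17), by limma for Ctla4 (-0.69), and with the block in the ratio for Maf (-0.44), Havcr2 (-0.011) and Foxp3 (-0.28). With each tumor left out, log2 fold changes ranged from -0.47 to 0.53 for Ctla4, -1.13 to 0.16 for Icos, -0.40 to 0.20 for Pdcd1, -1.60 to 0.078 for Il21, -0.88 to 0.053 for Lag3, -1.85 to -0.53 for Tox, -1.54 to -0.12 for Maf, -1.79 to -0.37 for Havcr2, -1.37 to -0.46 for Tigit and -1.80 to -0.47 for Foxp3, and the median of the 10 genes was -1.25 without Bcl6 tumor 1 and -0.04 without Bcl6 tumor 2. Ratios in edgeR ranged from -1.38 to 0.49 for Il21, -0.20 to 1.08 for Tox, -0.42 to 2.91 for Lag3, -0.083 to 0.59 for Havcr2, -0.90 to 1.34 for Tigit and -0.075 to 0.62 for Foxp3. Mean differences in log2 ratio ranged from -1.27 to 0.20 for Il21, -0.67 to 0.18 for Foxp3, -0.20 to 0.50 for Tox, -0.16 to 0.55 for Havcr2, -0.0017 to 1.66 for Lag3, -0.68 to 0.57 for Tigit and -0.050 to 0.91 for Maf. With macrophage markers, Spearman's rho was 0 for Icos, -0.05 for Il21, -0.28 for Tox and -0.10 for Foxp3, where r was positive. With each tumor left out, r ranged from -0.17 to 0.40 for Icos, -0.53 to 0.29 for Pdcd1, -0.46 to 0.49 for Il21, -0.26 to 0.34 for Tox, -0.56 to 0.16 for Lag3, -0.017 to 0.68 for Maf, -0.12 to 0.69 for Havcr2, -0.56 to 0.13 for Tigit and -0.30 to 0.33 for Foxp3. Of 620 single-gene values under alternatives, 553 kept their direction and their side of the threshold, 51 turned and 16 passed it. Ratios are limited by the 74 reads of Cd3e in Smc3/Bcl6 tumor 1, and Icos and Il21 by their low counts. In Smc3/Bcl6 tumors 2 and 6 they are limited by Cd3e standing apart from Cd3d.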
